A study of Mus musculus with 18 samples.

Results

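Peritoneal macrophages from mice in which PXR had been deleted in myeloid cells were compared with macrophages from mice carrying floxed PXR alleles, both kept in solvent without a PXR ligand. The 9 libraries were 6 of the group dMye_DMSO (genotype PXRΔMyeLDLR-/-) and 3 of the group FF_DMSO (PXRF/FLDLR-/-), out of 18 in the study. The other 9 received the mouse PXR ligand PCN. All mice were 6-week-old C57BL/6 animals, and both genotypes also carried the second deletion that their names give, so no group was wild type. Each mouse was given 1 mL of 3% thioglycollate, an irritant that draws cells into the peritoneal cavity, and the cells were harvested 3 days later. After 4 h on plates the attached cells were held in DMSO for 12 h. The labels do not name the Cre driver behind the deletion. Nor do they state if the replicates are different mice or different wells of 1 preparation, and the p-values therefore rest on a spread between libraries that may be technical.

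PXR, encoded by Nr1i2, is a nuclear receptor that binds steroids, bile acids and many drugs and switches on genes of drug metabolism, mostly in liver and intestine. The peritoneal cavity holds self-renewing resident macrophages marked by the transcription factor Gata6, B and T lymphocytes, and a lining of mesothelial cells over fibroblast-rich tissue. Thioglycollate brings in monocytes that turn into macrophages, and attachment to plastic enriches macrophages without removing every other cell.

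Library totals in the 9 DMSO libraries ran from 21993697 to 30201368 counts, so that 1 CPM (the unit of a gene's counts scaled to its library total) stood for 22 to 30.2 counts, and 15075 to 15909 genes had a count. The table held 21831 genes, of which 13409 passed a count filter and 12915 of these lie on autosomes. The counts below are for these autosomal genes. Nr1i2 itself (GRCm38 chromosome 16, 38248323 to 38294824, minus strand) had 2 counts over the FF_DMSO libraries and 2 over the dMye_DMSO libraries, so its loss was not detectable at this depth. The macrophage label was met by general macrophage genes with many reads in both groups, such as Cd68 (2545 ± 45.9 CPM in FF_DMSO and 2325 ± 127 in dMye_DMSO) and Lgals3 (7909.5 ± 57.3 CPM in FF_DMSO and 8069 ± 1098 in dMye_DMSO; mean ± SD, n = 3 and 6, as throughout). Others of that list had few reads, such as Cx3cr1 (means of 0.571 CPM in FF_DMSO and 0.476 in dMye_DMSO) and Cd163 (0.321 and 0.636). Libraries of the 2 genotypes also differed in sex. The Y-linked gene Ddx3y stood at 43.7 to 50.4 CPM in FF_DMSO and at 0 to 0.0995 CPM in dMye_DMSO, so genotype and sex cannot be told apart in any difference given here. Along the first principal component of the 9 libraries (48.0% of the variance) FF_DMSO lay between -51.4 and -45.4 and dMye_DMSO between 22.1 and 26.7. On the second (11.1%) the libraries dMye_DMSO 5, at 33.1, and dMye_DMSO 6, at -26.0, stood apart from the other 4 of their group.

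Without a ligand, 2817 of the 12915 autosomal genes (21.8%) differed between the genotypes at a Benjamini-Hochberg adjusted p under 0.05 in edgeR's quasi-likelihood test. Of these, 1794 were higher in dMye_DMSO (13.9% of genes) and 1023 were lower (7.92%). The larger changes were nearly all rises: 983 genes rose and 65 fell by at least 2-fold, and 357 rose and 13 fell by at least 4-fold. The median log2 difference over all autosomal genes was 0.02. The shares of 13.9% rises and 7.92% falls are the background of every list count below. Both shares changed with read depth, as the next paragraph sets out, and the lists were not matched for it. For 3049 of the 12915 genes (23.6%) the libraries of the 2 groups did not overlap in CPM. That share is the background wherever groups are said below to lie apart. With upper-quartile scaling in place of TMM the calls split into 2033 rises and 647 falls, a share of rises of 75.9% against 63.7%. Leaving out dMye_DMSO 5 and 6 together gave 1646 rises and 1116 falls. Without FF_DMSO 2 the falls numbered 572.

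Rises and falls lay at different read depths. Among genes with a mean of 1 to 10 CPM over the 9 libraries, 856 of 2975 rose and 66 fell, and the median rise was 1.26 on the log2 scale. Among genes of at least 100 CPM, 113 of 1881 rose and 348 fell, and the median fall was -0.21. Between 10 and 100 CPM 533 genes rose and 567 fell. The data therefore hold many large rises among thinly read genes and many small falls among heavily read ones. The size of a called change followed read depth in both directions. Falls at 1 to 10 CPM had a median of -0.78, and rises at 100 CPM or more a median of 0.26. CPM is not scaled to gene length, so these bins order genes by their reads and not by transcript number.

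**Figure D1:**
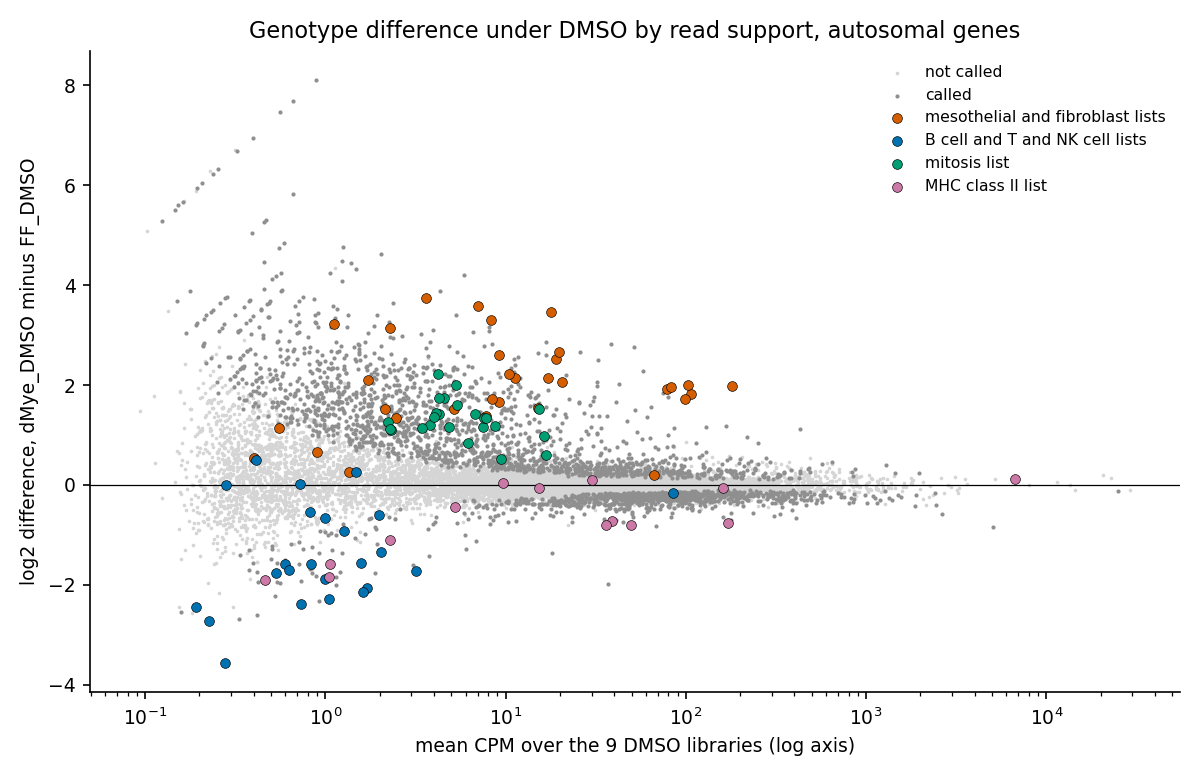
Log2 difference of each autosomal gene (vertical axis) against its mean CPM over the 9 DMSO libraries (horizontal log axis), with called genes in dark grey and 4 groups of gene lists in colour. Mesothelial and fibroblast genes lie above 0 and lymphocyte genes mostly below it, and the rising diagonal at the upper left holds genes with 0 counts in all FF_DMSO libraries, whose fitted values are not bounds.

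Markers of the cavity's lining cells were higher in dMye_DMSO. Of 18 mesothelial genes 17 rose and 0 fell (median log2 difference 2.18), and of 14 fibroblast genes tested 10 rose and 0 fell (1.63). Krt19, a keratin of simple epithelia and mesothelium, read 2.87, 1.91 and 2.18 CPM in FF_DMSO and 22.5 to 28.7 CPM (median 26.4) in dMye_DMSO (log2 difference 3.45, SE 0.13, adjusted p = 1.2e-14). Msln, which encodes mesothelin, a surface protein of mesothelial cells, read 4.45, 5.06 and 3.89 CPM in FF_DMSO and 24.4 to 29.0 CPM (median 25.5) in dMye_DMSO (log2 difference 2.53, SE 0.12, adjusted p = 2.2e-13). Every dMye_DMSO library lay far above every FF_DMSO library for both genes. Krt7, another simple-epithelial keratin, went from 1.18 ± 0.216 to 11.8 ± 0.613 CPM. Wt1, a transcription factor of the mesothelium, went from 3.37 ± 0.568 to 15.1 ± 1.44 CPM, and Upk1b, a uroplakin, from 5.17 ± 0.383 to 23.4 ± 1.46 CPM. Slpi, a secreted protease inhibitor, was the mesothelial list member that did not pass the test (59.9 ± 1.76 CPM in FF_DMSO and 69.6 ± 11.0 in dMye_DMSO). It held most of the mesothelial sum used below in FF_DMSO (101 to 109 CPM), but not in dMye_DMSO (293 to 324 CPM).

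Fibroblast genes followed the same division. Col3a1, a fibrillar collagen chain, read 56.9, 58.9 and 63.2 CPM in FF_DMSO and 210.0 to 267 CPM (median 240.1) in dMye_DMSO (log2 difference 1.98, SE 0.07, adjusted p = 4.0e-15). Sparc, a collagen-binding matrix protein, read 34.2, 36.9 and 30.1 CPM in FF_DMSO and 133 to 148 CPM (median 134) in dMye_DMSO (log2 difference 2.0, SE 0.07, adjusted p = 3.6e-15). Dcn, the matrix proteoglycan decorin, went from 27.1 ± 0.665 to 105 ± 6.37 CPM. No library of either group entered the range of the other for these 3 genes, as for 23.6% of all autosomal genes. Pdgfra, a receptor that marks fibroblasts, went from 6.60 ± 0.396 to 19.5 ± 2.89 CPM, while Pdgfrb was at 1.17 ± 0.523 CPM in FF_DMSO and 1.44 ± 0.487 in dMye_DMSO and was not called. The summed level of the mesothelial list was 101 to 109 CPM in FF_DMSO and 293 to 324 CPM in dMye_DMSO, and that of the fibroblast list 237 to 242 CPM in FF_DMSO and 811 to 991 CPM in dMye_DMSO. In bulk RNA, more cells of a type and more RNA per cell cannot be told apart. Both counts were the same without dMye_DMSO 5 and 6, and under upper-quartile scaling.

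**Figure D2:**
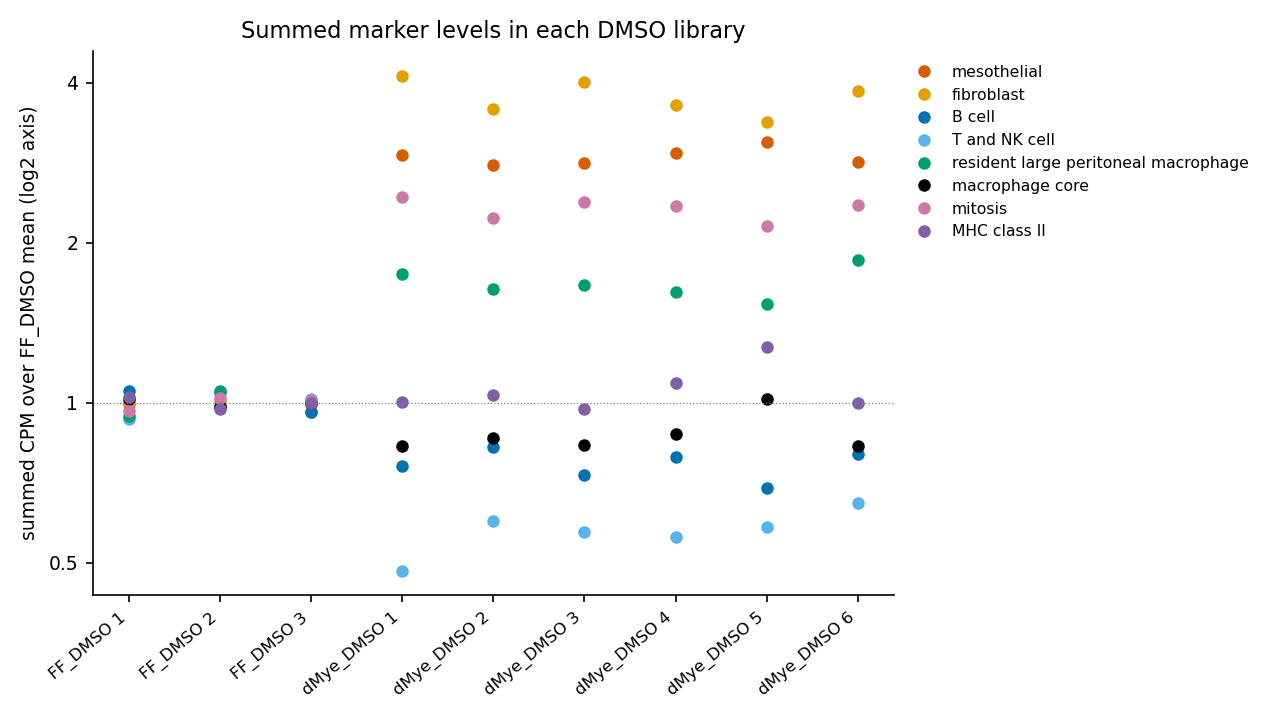
Summed CPM of 8 marker lists in each of the 9 DMSO libraries, divided by the FF_DMSO mean of that list (log2 axis), 1 point per list and library. Fibroblast, mesothelial, mitosis and resident macrophage sums lie above 1 in all 6 dMye_DMSO libraries, and B cell and T and NK cell sums lie below 1 in all 6. The macrophage core sum reaches 1 only in dMye_DMSO 5, and MHC class II sums of dMye_DMSO lie on both sides of 1.

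The 15 largest rises by the naming rule were mostly genes with few counts in FF_DMSO. They included matrix and growth-factor genes. Mgp, an extracellular inhibitor of calcification, read 0.525, 0.514 and 0.327 CPM in FF_DMSO and 7.15 to 12.0 CPM (median 8.13) in dMye_DMSO (log2 difference 4.21, SE 0.25, adjusted p = 2.1e-11). Lum, the matrix proteoglycan lumican, read 0.566, 0.514 and 0.0727 CPM in FF_DMSO and 4.15 to 6.02 CPM (median 5.31) in dMye_DMSO (log2 difference 3.74, SE 0.30, adjusted p = 2.5e-09). Igfbp5, a secreted binding protein of insulin-like growth factors, read 0.121, 0.514 and 0.582 CPM in FF_DMSO and 4.64 to 8.08 CPM (median 6.31) in dMye_DMSO (log2 difference 3.89, SE 0.91, adjusted p = 0.0059). Mgp and Lum were above 4 CPM in every dMye_DMSO library and below 1 CPM in every FF_DMSO library. The naming rule took only genes whose groups did not overlap, so this separation followed from the choice. Spon2, Col24a1, Crispld2, Gdf6, Greb1, Hoxc8, Evc2, Il17re, Ednra, Tmem45a and Fam180a had log2 differences between 3.65 and 4.76, each from an FF_DMSO mean below 0.3 CPM. Ephb3, an ephrin receptor, had 0 counts in FF_DMSO and a mean of 1.33 CPM in dMye_DMSO, at least 11.7-fold higher against a floor of 3 counts per library.

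Lymphocyte genes were lower in dMye_DMSO. Of 14 B cell genes 10 fell and 0 rose (median -1.58), and of 10 tested T and NK cell genes 6 fell and 0 rose (-1.31). The filter of 1 CPM in 3 libraries, which tested fewer of them, left 1 T and NK cell fall. Cd79a, a signalling chain of the B cell receptor, read 6.10, 5.21 and 6.47 CPM in FF_DMSO and 1.39 to 2.57 CPM (median 1.72) in dMye_DMSO (log2 difference -1.73, SE 0.20, adjusted p = 9.6e-07). Ms4a1, which encodes CD20, read 2.99, 3.41 and 3.85 CPM in FF_DMSO and 0.551 to 1.41 CPM (median 0.725) in dMye_DMSO (log2 difference -2.06, SE 0.31, adjusted p = 2.5e-05). The groups did not overlap for either gene. Ms4a1 is also among the 15 largest falls, which the naming rule took only from genes without overlap. Pax5, the transcription factor that holds B cell identity, had a log2 difference of -2.37, and Pou2af1, a B cell co-activator, -1.89. Among T cell genes Cd4 went from 0.998 ± 0.279 to 0.301 ± 0.0896 CPM and Cd3e, a chain of the T cell receptor complex, from 0.713 ± 0.705 to 0.0580 ± 0.0537 CPM. The Cd3e call was lost without FF_DMSO 3 (adjusted p = 0.060), the library with most of its reads. These genes had at most a few CPM even in FF_DMSO. Cd22, at 90.2 ± 5.84 CPM in FF_DMSO and 82.5 ± 5.81 in dMye_DMSO, made up most of the B cell sum (117 to 128 CPM in FF_DMSO and 84.0 to 100.2 CPM in dMye_DMSO) and was not called.

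The 15 largest falls by the naming rule were also mostly lymphocyte genes read at a few CPM. Besides Pax5, Ms4a1 and Pou2af1 they included Ly6d, a marker of early B cells (log2 difference -2.32), Fcmr, the receptor for IgM (-2.14), Mzb1, a chaperone of antibody assembly (-2.01), and Ikzf3, the transcription factor Aiolos (-1.84). Mzb1 went from 2.30 ± 0.207 CPM in FF_DMSO to 0.580 ± 0.190 in dMye_DMSO. Lef1, a transcription factor of T and early B cells, and Gimap4 fell by 2.23 and 1.82 on the log2 scale. Tbc1d10c and Fam169b had log2 differences of -1.96 and -1.92. These 8 genes had FF_DMSO means between 1.11 and 3.34 CPM, and 7 kept their call in all 18 alternatives. Tbc1d10c kept it in those that tested it, and did not pass the filter of 1 CPM in 3 libraries.

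Most listed genes of MHC class II antigen presentation, carried by B cells, dendritic cells and some macrophages, were lower as well. Of 14 members 9 fell and 0 rose (median -0.73). Cd74, the invariant chain that guides class II molecules, read 246, 230.0 and 227 CPM in FF_DMSO and 129.6 to 151 CPM (median 139.6) in dMye_DMSO (log2 difference -0.76, SE 0.06, adjusted p = 1.1e-09). H2-Eb1 and H2-Aa, chains of the class II molecules I-E and I-A, had log2 differences of -0.81 (SE 0.09, adjusted p = 2.0e-07) and -0.81 (SE 0.09, adjusted p = 6.9e-07). H2-Eb1 read 54.5, 45.5 and 49.7 CPM in FF_DMSO and 24.3 to 31.2 CPM (median 29.6) in dMye_DMSO, with no overlap. Ciita, the co-activator that class II genes depend on, went from 3.51 ± 0.153 to 1.67 ± 0.233 CPM. H2-Oa and H2-Ob, chains of a class II modulator found in B cells, had log2 differences of -1.91 and -1.84. Ifi30, Ctss, Cd86, Cd80 and H2-DMb1 were not called, with log2 differences between -0.07 and 0.11. The summed level of the class II list did not fall, at 6723 to 7092 CPM in FF_DMSO and 6708 to 8800 CPM in dMye_DMSO. Cd74, H2-Aa and H2-Eb1 held a small part of this sum, with FF_DMSO means of 234, 69.4 and 49.9 CPM. The sum is therefore no measure of these 3 genes. The B cell sum moved with the class II genes that fell (117 to 128 CPM in FF_DMSO and 84.0 to 100.2 CPM in dMye_DMSO). Its part in their fall was not tested. Dendritic cell genes did not move 1 way. Of 9 tested Dpp4 rose (1.84), Ccr7 and Flt3 fell (-1.59 and -1.93, the latter not called without FF_DMSO 1, adjusted p = 0.11), and the median was 0.00 on the log2 scale. Their sum was 197 to 201 CPM in FF_DMSO and 193 to 222 CPM in dMye_DMSO. Because chains of the family are alike in sequence, reads may be divided between them by estimate.

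The promoters of the 2 class II chains are shown because their genes fell together. They are RefSeq sequences of GRCm38.p6, each running from 250 bases before to 50 after the gene's start, at chr17:34305617-34305916 on the plus strand for H2-Eb1 and chr17:34287774-34288073 on the minus strand for H2-Aa. Capitals mark matches on either strand to CAACNGATG, the core of the X box of class II promoters, and to CCAAT, whose reverse ATTGG is the core of the Y box.
H2-Eb1: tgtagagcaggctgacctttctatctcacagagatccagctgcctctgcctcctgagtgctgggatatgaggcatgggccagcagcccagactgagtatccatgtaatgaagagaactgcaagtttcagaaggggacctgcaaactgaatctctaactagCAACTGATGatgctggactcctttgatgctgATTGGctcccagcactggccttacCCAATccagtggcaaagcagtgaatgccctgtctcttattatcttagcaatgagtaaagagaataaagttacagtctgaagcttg
H2-Aa: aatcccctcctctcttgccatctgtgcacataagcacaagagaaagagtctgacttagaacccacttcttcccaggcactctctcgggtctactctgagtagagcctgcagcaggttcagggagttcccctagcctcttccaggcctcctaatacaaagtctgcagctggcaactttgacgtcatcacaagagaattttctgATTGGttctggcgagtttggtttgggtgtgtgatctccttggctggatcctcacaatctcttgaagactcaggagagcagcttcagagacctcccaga
In H2-Eb1 the X box match starts at -90 and CCAAT matches start at -59 and -35, counting the start site as 1. In H2-Aa the CCAAT match starts at -48. Of the 10 class II members with a promoter in the table, 1 held CAACNGATG and 6 (60%) held CCAAT, against 0.514% and 37.9% of all 27025 promoters. A match is a description of letters and not of binding.

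Of 19 general macrophage genes 2 rose and 2 fell, with a median of 0.01, beside 13.9% rises and 7.92% falls over all autosomal genes. Both counts went to 1 without FF_DMSO 2, and the rises also without FF_DMSO 3 or dMye_DMSO 3. Lyz2, a lysozyme gene whose reads may be shared with its copy Lyz1, held the largest change of the list, a fall from 7141 ± 324 to 4060 ± 646 CPM. Adgre1 (F4/80), Csf1r, Mertk, Spi1 and Trem2 were not called and had log2 differences from -0.02 to 0.09. Cd14, the co-receptor for lipopolysaccharide, read 39.5, 42.0 and 37.6 CPM in FF_DMSO and 47.9 to 57.2 CPM (median 51.2) in dMye_DMSO (log2 difference 0.36, SE 0.08, adjusted p = 0.0012). Itgam, an integrin chain of myeloid cells, also passed the test (299 ± 2.32 CPM in FF_DMSO and 349 ± 30.8 in dMye_DMSO; log2 difference 0.20, SE 0.06, adjusted p = 0.018), but that call was lost in 7 of 18 alternatives, among them each fit that left out 1 FF_DMSO library. Cd68 had a log2 difference of -0.16. The sum of the list was 24369 to 25217 CPM in FF_DMSO and 20533 to 21604 CPM in 5 of the dMye_DMSO libraries, with dMye_DMSO 5 at 25202 CPM. Lyz2 was a large part of this sum, at 7141 ± 324 CPM in FF_DMSO and 4060 ± 646 in dMye_DMSO, and at 5347 in dMye_DMSO 5. The lower sum is therefore no measure of the list as a whole, whose median was 0.01.

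Genes typical of resident large peritoneal macrophages were higher. Of 14 tested 10 rose and 1 fell (median 0.66). Gata6, the factor that sets the identity of these cells, read 3.64, 5.98 and 5.45 CPM in FF_DMSO and 11.5 to 15.1 CPM (median 14.4) in dMye_DMSO (log2 difference 1.45, SE 0.14, adjusted p = 8.9e-08). Timd4, a receptor for phosphatidylserine on dying cells, read 0.364, 0.293 and 0.109 CPM in FF_DMSO and 2.18 to 3.49 CPM (median 2.74) in dMye_DMSO (log2 difference 3.41, SE 0.34, adjusted p = 8.1e-08). Cd5l, a secreted protein of tissue macrophages, read 28.5, 28.1 and 26.8 CPM in FF_DMSO and 42.5 to 53.8 CPM (median 47.7) in dMye_DMSO (log2 difference 0.77, SE 0.08, adjusted p = 1.5e-07). All 6 dMye_DMSO libraries exceeded all 3 FF_DMSO libraries for these genes, and dMye_DMSO 5 was the lowest of its group for Gata6. Selp, Tgfb2, Prg4, Alox15 and F5 also rose, with log2 differences from 0.55 to 2.0. Serpinb2 fell (-0.48), a call lost without FF_DMSO 1, FF_DMSO 3 or dMye_DMSO 2. The sum was 136 to 152 CPM in FF_DMSO and 222 to 268 CPM in dMye_DMSO. Some members, Gata6 among them, are known from mesothelial or stromal cells too. The mesothelial sum (101 to 109 CPM in FF_DMSO and 293 to 324 CPM in dMye_DMSO) and the fibroblast sum (237 to 242 CPM in FF_DMSO and 811 to 991 CPM in dMye_DMSO) separated the same libraries, and their part in these rises was not tested. Among 10 monocyte genes 1 rose, Vcan, and 2 fell, among them Ccr2 (median -0.30). The calls of Vcan and Ccr2 were lost in 8 and 10 of the 18 alternatives. Of 8 tested neutrophil genes 1 rose, Lcn2 (0.39, not called without FF_DMSO 1 or FF_DMSO 3), and 3 fell, S100a9, Csf3r and Mmp8 (-1.27, -0.38 and -1.36), with a median of 0.08. Mmp8, a collagenase, read 30.4, 29.5 and 30.4 CPM in FF_DMSO and 11.0 to 13.6 CPM (median 11.8) in dMye_DMSO (log2 difference -1.36, SE 0.08, adjusted p = 2.0e-11), while Ly6g, Camp and Ngp had at most 1 count in any DMSO library.

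**Figure D3:**
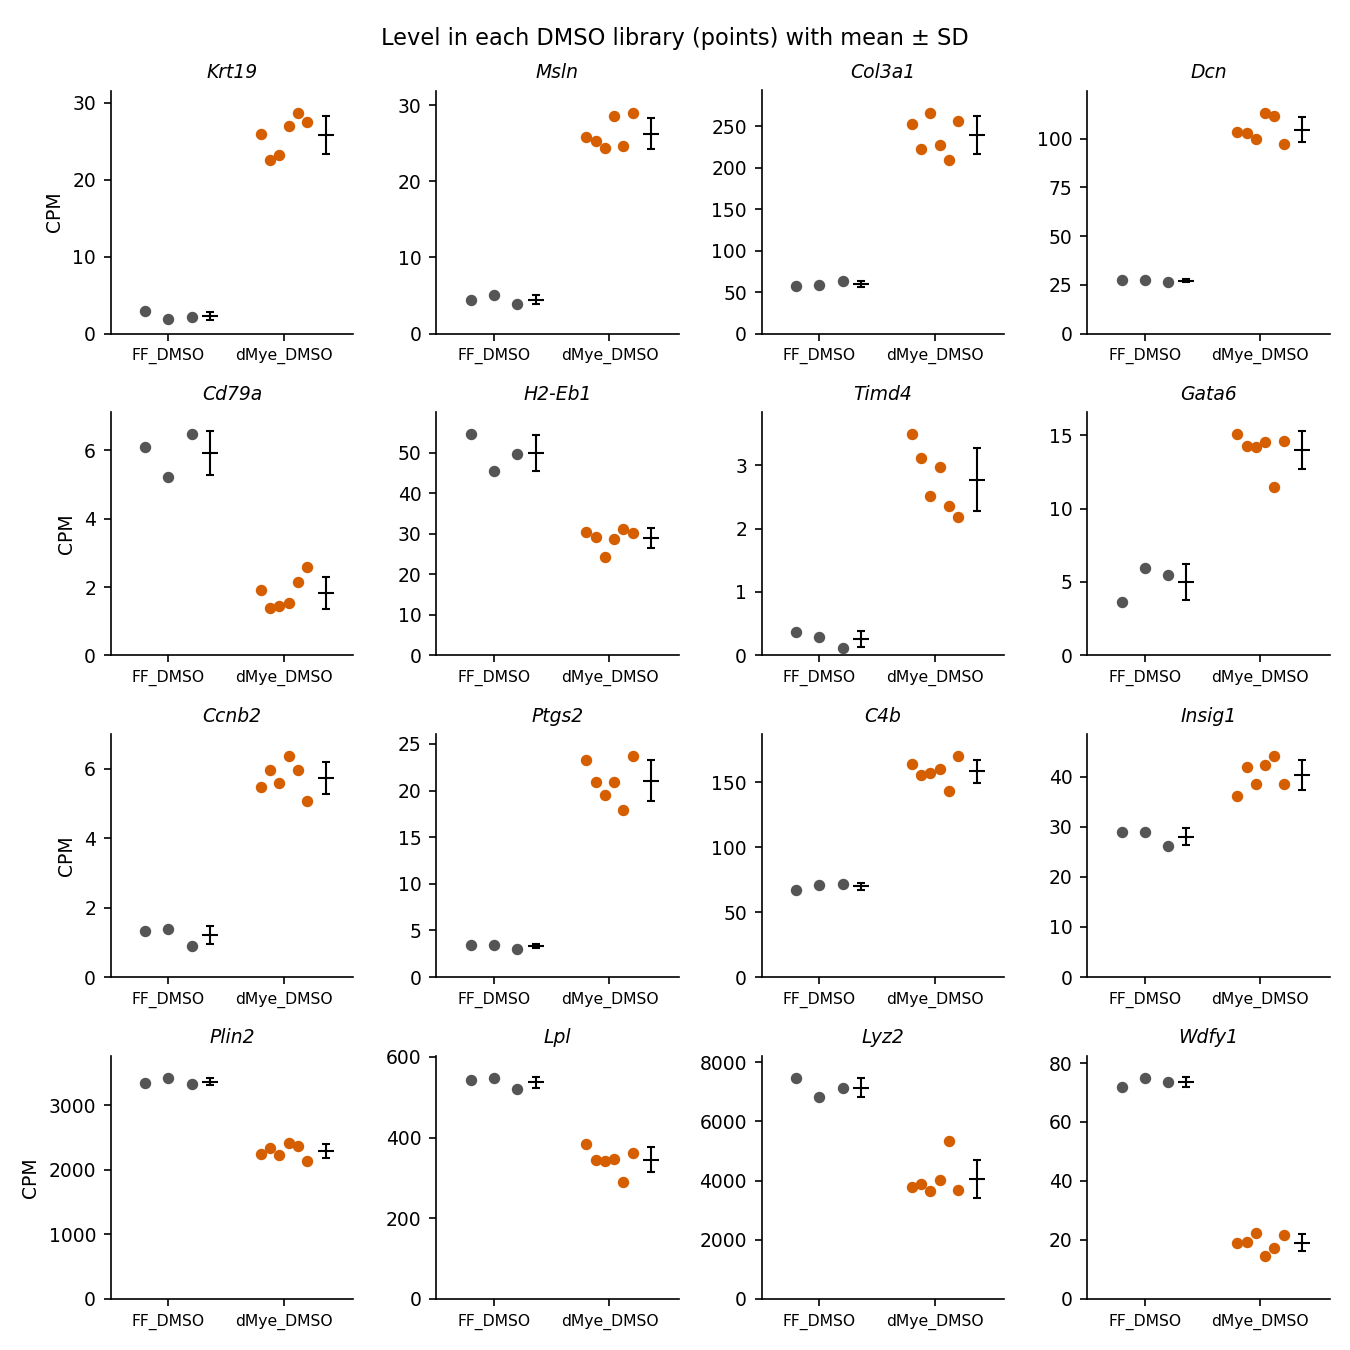
CPM of 16 genes in each library (points; 3 of FF_DMSO in grey, 6 of dMye_DMSO in orange) with the group mean ± SD at the right, each axis starting at 0. In every panel the 2 groups lie apart, as for 23.6% of all autosomal genes. Levels are higher in dMye_DMSO for 10 genes and lower for Cd79a, H2-Eb1, Plin2, Lpl, Lyz2 and Wdfy1.

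All 24 genes of the mitosis list rose (median 1.30). Ccnb2, a mitotic cyclin, read 1.33, 1.39 and 0.909 CPM in FF_DMSO and 5.06 to 6.37 CPM (median 5.78) in dMye_DMSO (log2 difference 2.22, SE 0.16, adjusted p = 7.6e-10). Ube2c, an enzyme that marks cyclins for destruction, read 1.78, 1.76 and 1.64 CPM in FF_DMSO and 5.82 to 8.48 CPM (median 6.91) in dMye_DMSO (log2 difference 2.0, SE 0.16, adjusted p = 1.9e-09). Top2a, which untangles replicated DNA, read 5.46, 7.34 and 7.24 CPM in FF_DMSO and 15.9 to 22.7 CPM (median 20.1) in dMye_DMSO (log2 difference 1.52, SE 0.11, adjusted p = 7.7e-10). The groups did not overlap for any of these. The smallest rises in the list were those of Hmmr (0.52) and Tpx2 (0.59). Genes of DNA replication moved less: 7 of 23 rose and 1 fell (median 0.14), with 4 rises without FF_DMSO 2. Tk1, Rrm2, Uhrf1 and Tyms, which serve nucleotide supply or the copying of DNA methylation, rose (2.42, 1.23, 1.15 and 0.53). Mcm2, Mcm3, Mcm4 and Mcm6, subunits of the replicative helicase, were not called (-0.11 to 0.14), and Cdt1, which loads that helicase, fell (-0.28). The sum of the mitosis list was 80.7 to 85.6 CPM in FF_DMSO and 180.2 to 204 CPM in dMye_DMSO. The mesothelial sum (101 to 109 CPM in FF_DMSO and 293 to 324 CPM in dMye_DMSO) and the resident macrophage sum (136 to 152 CPM in FF_DMSO and 222 to 268 CPM in dMye_DMSO) moved in the same libraries, and which cells carried the mitotic reads was not tested.

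The promoters of the 2 mitosis genes with the largest rises are shown since the whole list moved together. They come from the same RefSeq table, at chr9:70421505-70421804 on the minus strand for Ccnb2 and chr2:164769679-164769978 on the plus strand for Ube2c. Capitals mark matches on either strand to TTTGAA, the core of the cell cycle genes homology region, and to CCAAT.
Ccnb2: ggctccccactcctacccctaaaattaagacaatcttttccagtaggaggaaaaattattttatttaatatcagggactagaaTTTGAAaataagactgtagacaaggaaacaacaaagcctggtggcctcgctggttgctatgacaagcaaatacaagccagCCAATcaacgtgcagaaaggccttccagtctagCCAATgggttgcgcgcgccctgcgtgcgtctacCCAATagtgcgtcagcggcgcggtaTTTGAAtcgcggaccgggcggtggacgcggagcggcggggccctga
Ube2c: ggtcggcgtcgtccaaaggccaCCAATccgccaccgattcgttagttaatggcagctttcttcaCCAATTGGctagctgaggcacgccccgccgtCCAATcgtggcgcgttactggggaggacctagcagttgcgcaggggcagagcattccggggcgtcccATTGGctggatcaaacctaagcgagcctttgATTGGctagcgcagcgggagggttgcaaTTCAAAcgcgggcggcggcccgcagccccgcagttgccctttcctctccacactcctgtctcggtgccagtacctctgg
In Ccnb2 the TTTGAA matches start at -167 and 5, and CCAAT matches at -87, -54 and -21. In Ube2c the TTTGAA match starts at -29, and CCAAT matches start at -228, -186, -183, -155, -88 and -57, those at -186 and -183 overlapping on opposite strands. Of the 20 list members with a promoter in the RefSeq set, 15 (75%) held TTTGAA and 17 (85%) held CCAAT, against 18.1% and 37.9% of all promoters.

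Complement genes were higher. Of 16 tested 12 rose and 0 fell (median 0.78). C4b, a component of the classical and lectin pathways, read 67.0, 70.9 and 71.4 CPM in FF_DMSO and 143 to 170.1 CPM (median 158) in dMye_DMSO (log2 difference 1.15, SE 0.05, adjusted p = 9.1e-14). C1s1, the protease that cleaves it, read 3.52, 3.01 and 2.95 CPM in FF_DMSO and 13.7 to 15.8 CPM (median 14.9) in dMye_DMSO (log2 difference 2.21, SE 0.10, adjusted p = 3.2e-13). No library of one group fell within the range of the other for these genes. C3, the central component, went from 89.2 ± 6.29 to 206 ± 16.2 CPM, and the C1q chains C1qa, C1qb and C1qc, made mostly by macrophages, had log2 differences of 0.74, 0.34 and 0.62. The receptors C5ar1 and C3ar1 were not called. The fibroblast sum was 237 to 242 CPM in FF_DMSO and 811 to 991 CPM in dMye_DMSO, and its part in the complement rises was not tested.

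Chemokine and prostanoid genes included large rises from low levels. Of 20 chemokine genes 10 rose and 3 fell (median 0.49), among them Ccl2 and Ccl7, which attract monocytes (1.22 and 0.81), and Cxcl10, an interferon-induced T cell attractant (0.162, 0.330 and 0.145 CPM in FF_DMSO and 1.00 to 1.82 CPM (median 1.36) in dMye_DMSO; log2 difference 2.60, SE 0.36, adjusted p = 1.2e-05). Ccl5, Ccl9 and Ccl22 fell (-0.67, -0.37 and -1.59). Of 19 eicosanoid genes 10 rose and 1 fell (median 0.35). Ptgs2, the inducible cyclooxygenase, read 3.44, 3.41 and 3.05 CPM in FF_DMSO and 18 to 23.7 CPM (median 20.9) in dMye_DMSO (log2 difference 2.65, SE 0.11, adjusted p = 7.2e-14). Ptgs1, the constitutive enzyme, read 18.6, 17.5 and 16.1 CPM in FF_DMSO and 42.5 to 49.4 CPM (median 47.0) in dMye_DMSO (log2 difference 1.39, SE 0.07, adjusted p = 1.0e-12), and Ptgis, the prostacyclin synthase, went from 12.1 ± 1.07 to 39.7 ± 2.17 CPM. Each dMye_DMSO library was above each FF_DMSO library for these 3 enzymes. Pla2g7, a lipase that breaks down platelet-activating factor, fell from 208 ± 4.79 to 136 ± 8.85 CPM. Fibroblast and mesothelial sums separated the same libraries, at 237 to 242 and 101 to 109 CPM in FF_DMSO and 811 to 991 and 293 to 324 in dMye_DMSO, and their part was not tested.

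The wider NF-kB list did not move as 1 block: 10 of 30 genes rose and 3 fell (median 0.13). Besides Ptgs2, rises were small, such as Ccl3, a chemokine of activated macrophages (0.37), Icam1, an adhesion receptor (0.60), and Nfkbia, the pathway's inhibitor (0.26). Tnfaip3, which ends NF-kB signalling, fell (-0.21), as did Il1rn, the interleukin-1 receptor antagonist (-0.45). Tnf was at 11.2 ± 0.716 CPM in FF_DMSO and 13 ± 0.182 in dMye_DMSO and was not called (adjusted p = 0.11). Il1b had 28 counts over each group and did not pass the filter. Of 31 interferon-stimulated genes 6 rose and 1 fell (median 0.07), beside 13.9% rises and 7.92% falls over all autosomal genes. Of 20 pattern recognition genes Marco, a scavenger receptor, read 7.60, 9.17 and 8.29 CPM in FF_DMSO and 21.5 to 32.2 CPM (median 22.4) in dMye_DMSO (log2 difference 1.53, SE 0.14, adjusted p = 4.0e-08), Tlr2, a receptor for bacterial lipoproteins, rose (0.72), and Cd180, a relative of the toll-like receptors, fell from 169.7 ± 2.61 to 126 ± 9.44 CPM.

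Genes of alternative activation were mixed, with 7 of 15 rising and 2 falling (median 0.26). Chil3, a secreted chitinase-like protein, read 169.9, 164 and 156 CPM in FF_DMSO and 275 to 344 CPM (median 289) in dMye_DMSO (log2 difference 0.84, SE 0.08, adjusted p = 4.2e-08). Arg1, which breaks down arginine, read 2.67, 3.15 and 2.65 CPM in FF_DMSO and 4.8 to 8.96 CPM (median 6.21) in dMye_DMSO (log2 difference 1.19, SE 0.21, adjusted p = 2.2e-04), and Mrc1, the mannose receptor, had a log2 difference of 0.43. Egr2 fell (-0.44). Of 17 tested genes for clearing dying cells 6 rose and 3 fell (median 0.01), and their sum was 3478 to 3841 CPM in FF_DMSO and 2426 to 3803 CPM in dMye_DMSO. Among them Axl, a receptor kinase, read 28.5, 27.9 and 28.0 CPM in FF_DMSO and 49.8 to 57.2 CPM (median 52.8) in dMye_DMSO (log2 difference 0.89, SE 0.05, adjusted p = 3.3e-11), and its bridging ligands Gas6 and Pros1 rose (1.03 and 1.02). Mertk, the related receptor, was not called (0.07). The integrin chains Itgav and Itgb5 fell (-0.25 and -0.22). The part in these rises of the cells behind the fibroblast sum (237 to 242 CPM in FF_DMSO and 811 to 991 CPM in dMye_DMSO) and the mesothelial sum (101 to 109 CPM and 293 to 324 CPM) was not tested. Of 26 cytokine receptor genes 2 rose, Il1r1 (1.31) and Osmr (1.42), and 7 fell, including Csf2rb, the shared chain of the GM-CSF receptor (from 474 ± 24.9 to 342 ± 35.3 CPM). Over all autosomal genes 13.9% rose and 7.92% fell.

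Lipid genes are given by function. Sterol synthesis genes were higher in 13 of 22 and lower in 0 (median 0.36). Insig1, which holds back the sterol-sensing machinery, read 29.0, 29.0 and 26.1 CPM in FF_DMSO and 36.2 to 44.1 CPM (median 40.3) in dMye_DMSO (log2 difference 0.50, SE 0.08, adjusted p = 6.1e-05). Idi1, Fdps, Sqle, Cyp51 and Msmo1, all enzymes of the pathway, rose by 0.36 to 0.45 on the log2 scale. Srebf2, the pathway's transcription factor, was not called (0.01). The count fell to 3 when tested for changes beyond 1.2-fold, and to 8 without FF_DMSO 3. Of 14 fatty acid synthesis genes 6 rose and 1 fell, among the rises the desaturases Scd1 and Scd2 (1.16 and 1.76).

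Of 20 genes of lipid uptake and storage 6 fell and 3 rose (median -0.08), with 11 members below 0 and 9 above. Beside them, 348 of all 1881 autosomal genes of at least 100 CPM fell. Plin2, which coats lipid droplets, read 3342, 3423 and 3319.7 CPM in FF_DMSO and 2128 to 2418 CPM (median 2291) in dMye_DMSO (log2 difference -0.58, SE 0.05, adjusted p = 3.1e-08). Lpl, the lipoprotein lipase, read 542, 548 and 521 CPM in FF_DMSO and 290.3 to 385 CPM (median 345) in dMye_DMSO (log2 difference -0.66, SE 0.08, adjusted p = 7.7e-07). Cd36, a receptor for fatty acids and oxidised lipoproteins, read 2887, 2916 and 2834 CPM in FF_DMSO and 2015 to 2401 CPM (median 2246) in dMye_DMSO (log2 difference -0.39, SE 0.06, adjusted p = 1.9e-05). All 3 were lower in every dMye_DMSO library than in any FF_DMSO library. Vldlr, a lipoprotein receptor with few reads, rose (1.84), as did the fatty acid carrier Fabp4 (0.47). Of 18 genes of PPAR response and fatty acid oxidation 6 fell and 0 rose (median -0.12). Over all autosomal genes 7.92% fell, and 348 of the 1881 read at 100 CPM or more. Cpt1a, the gate for fatty acids into mitochondria, read 226, 219 and 224 CPM in FF_DMSO and 131 to 164 CPM (median 158) in dMye_DMSO (log2 difference -0.56, SE 0.05, adjusted p = 1.3e-08), and Angptl4, a secreted brake on lipoprotein lipase, went from 9.85 ± 1.24 to 4.15 ± 0.865 CPM, a called fall. Pparg itself was at 103 ± 3.22 CPM in FF_DMSO and 103 ± 5.70 in dMye_DMSO.

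Cholesterol efflux genes and other targets of the nuclear receptor LXR, taken as a single list, had no common direction. Of 20 members 7 rose, among them the desaturase Scd2, and 5 fell (median -0.01). The rises numbered 4 without FF_DMSO 1 or FF_DMSO 2 and 3 without FF_DMSO 3. Abcg1, an efflux pump, read 379, 417 and 394 CPM in FF_DMSO and 220.3 to 279 CPM (median 269) in dMye_DMSO (log2 difference -0.62, SE 0.06, adjusted p = 7.0e-08). Abca1, its partner, was at 64.2 ± 4.58 CPM in FF_DMSO and 52.6 ± 8.61 in dMye_DMSO and was not called (adjusted p = 0.061). Pltp, a phospholipid transfer protein, rose from 73.7 ± 2.77 to 134 ± 7.39 CPM. Apoe, a carrier of effluxed cholesterol, passed the test (1280.0 ± 57.2 CPM in FF_DMSO and 1542 ± 140.5 in dMye_DMSO; log2 difference 0.25, SE 0.08, adjusted p = 0.022), but the groups overlapped and 4 of 18 alternatives lost the call. Of 23 tested xenobiotic genes, the class PXR is known for, 5 rose and 4 fell (median 0.10). Over all autosomal genes 13.9% rose and 7.92% fell. The xenobiotic rises numbered 2 without FF_DMSO 2, and the xenobiotic falls 2 without FF_DMSO 3. No read of Cyp3a11, which PXR induces in liver, was counted in any of the 9 libraries. Gsta3, a glutathione transferase, rose (0.65), and Por, the electron donor of cytochromes P450, and Alas1, the first enzyme of haem synthesis, fell (-0.20 and -0.48). Abcb1a, Abcb1b and Rxra, the partner of PXR, were not called (0.14, 0.10 and -0.02).

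**Figure D4:**
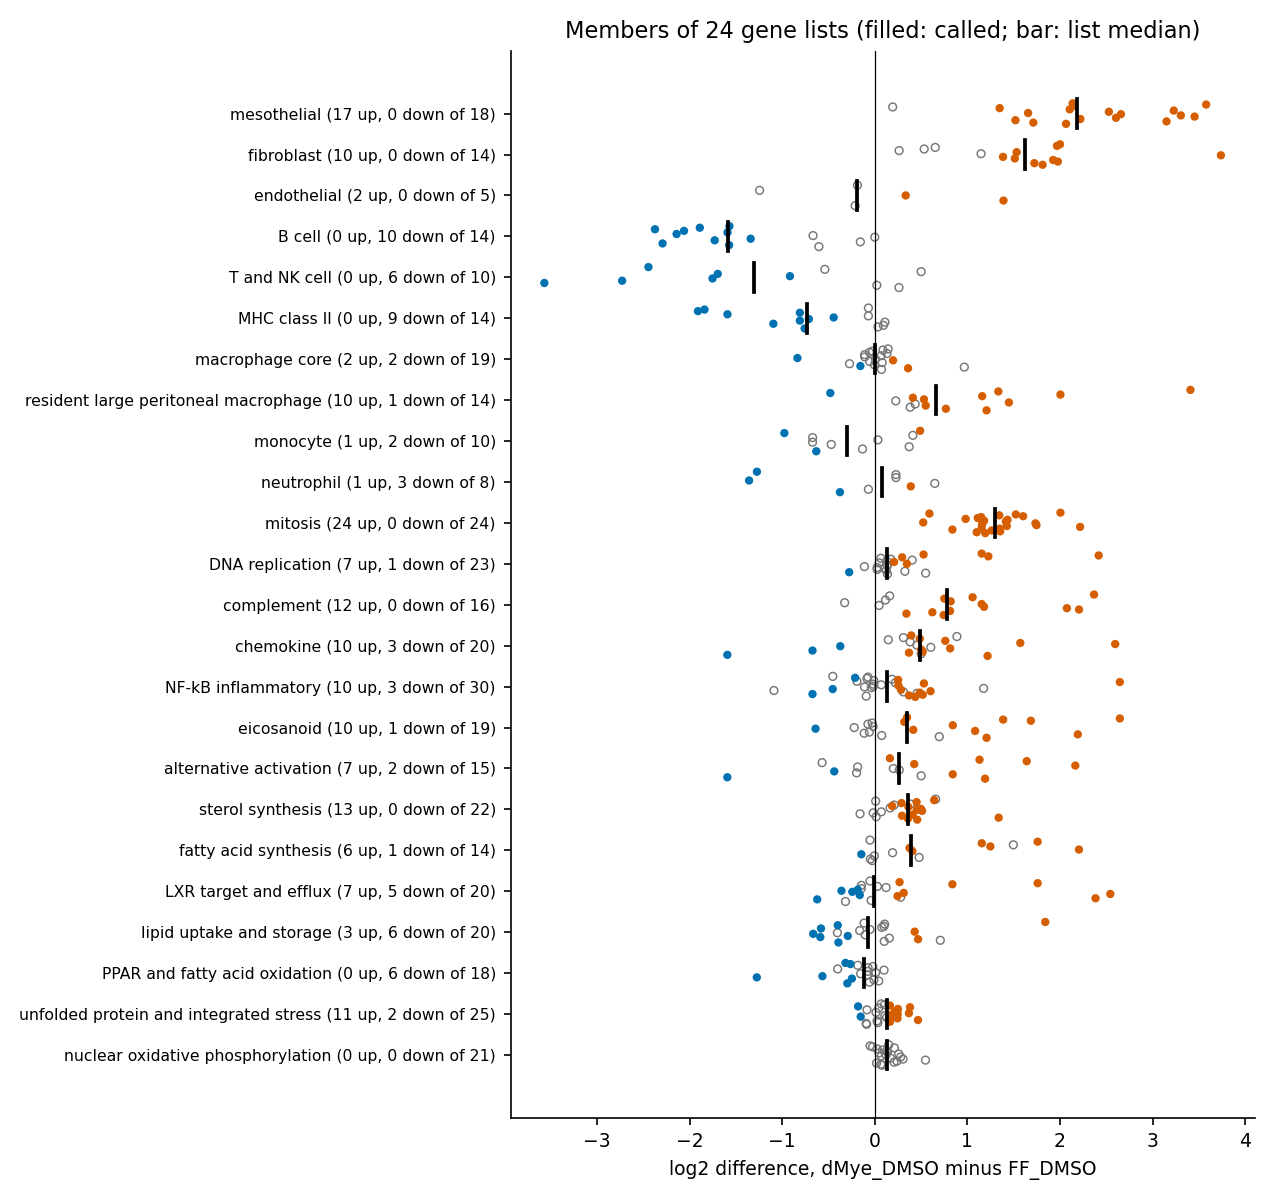
Log2 difference of each tested member of 24 gene lists, filled where called and open where not, with a black bar at the list median and the counts of rises and falls in the labels. The mesothelial, fibroblast and mitosis medians lie above 1, the B cell and T and NK cell medians below -1, and the other medians between -0.73 and 0.78.

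Stress and metabolic lists showed smaller differences. In the list for protein folding stress and the integrated stress response, 11 of 25 rose and 2 fell, with rises of at most 0.47 (Chac1, which breaks down glutathione). Hspa5, the chaperone BiP, read 385, 382 and 361 CPM in FF_DMSO and 431 to 484 CPM (median 453) in dMye_DMSO (log2 difference 0.25, SE 0.05, adjusted p = 0.0015). The number of rises was 4, 5 and 6 without FF_DMSO 1, 2 and 3, and 1 in the test against a 1.2-fold change. The small heat shock genes Hspb1 and Cryab rose (1.72 and 1.07), and 12 of the 16 heat shock genes were not called. Mt2, a metallothionein, rose (1.00), and Fos, an early response factor, fell from 31.6 ± 0.240 to 19.1 ± 1.04 CPM. Of 22 tested early response genes 6 rose and 3 fell (median 0.05), beside 13.9% rises and 7.92% falls over all autosomal genes. Of 21 nuclear genes of oxidative phosphorylation and 13 mitochondrially encoded genes 0 were called, and of 20 glycolysis and hypoxia genes 1 was (Pfkm, 0.71). These counts near 0 moved with the setting: glycolysis falls numbered 4 without dMye_DMSO 4, without dMye_DMSO 5 or with RLE scaling and 5 with DESeq2, mitochondrially encoded falls 2 without dMye_DMSO 4, and rises of nuclear oxidative phosphorylation 2 without dMye_DMSO 5 and 6. Of 28 lysosomal genes 2 rose and 3 fell, counts that became 5 and 1 under upper-quartile scaling. Leaving out 1 library gave 1 to 6 rises (6 without dMye_DMSO 6, 4 without dMye_DMSO 3 and 1 without FF_DMSO 2, FF_DMSO 3, dMye_DMSO 4 or dMye_DMSO 5) and 1 to 5 falls (1 without FF_DMSO 2 and 5 without dMye_DMSO 5). Lipa, the acid lipase, had the largest called change of the list, at 1567 ± 24.8 CPM in FF_DMSO and 1304 ± 50.8 in dMye_DMSO.

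Iron, clock and MHC class I genes had no common direction. Their counts stand beside 13.9% rises and 7.92% falls over all autosomal genes. Of 18 iron and haem genes 4 rose and 3 fell (median -0.02; 5 falls without dMye_DMSO 4), with Steap4, a metalloreductase, going from 0.925 ± 0.270 CPM in FF_DMSO to 4.34 ± 0.772 in dMye_DMSO. Of 17 tested clock genes 4 rose and 3 fell (median 0.11), with 1 fall without FF_DMSO 2. Dbp, an output factor of the clock, rose from 9.94 ± 0.616 to 16 ± 1.65 CPM, while the repressor Bhlhe41 fell from 365 ± 7.65 to 301 ± 17.7 CPM. Of 15 MHC class I genes 2 rose and 1 fell (median 0.11): H2-Q7 and H2-K1 (0.34 and 0.24), calls that were lost without FF_DMSO 2, and the class I activator Nlrc5 (-0.35), whose call was lost without FF_DMSO 3.

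Matrix proteases and adhesion genes split by member. Mmp2, a gelatinase, read 0.566, 1.32 and 1.38 CPM in FF_DMSO and 8.19 to 10.7 CPM (median 9.33) in dMye_DMSO (log2 difference 3.06, SE 0.23, adjusted p = 1.1e-09), and Timp3, a protease inhibitor held in the matrix, 25.2, 28.7 and 27.2 CPM in FF_DMSO and 79.9 to 111 CPM (median 102) in dMye_DMSO (log2 difference 1.83, SE 0.09, adjusted p = 7.2e-13). Both were higher in every dMye_DMSO library. The leukocyte integrin chains Itgb7 and Itgb2 were lower (from 551 ± 15.6 to 425 ± 16.9 CPM, and from 1247 ± 5.40 to 1057 ± 43.3 CPM), while Vcam1, a ligand on stromal cells, was higher (1.2). The fibroblast sums of 237 to 242 CPM in FF_DMSO and 811 to 991 in dMye_DMSO stand beside these values, and their part was not tested.

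A few genes stood out by position or by the shape of their change. Wdfy1, an endosomal adaptor of toll-like receptor signalling (chromosome 1, 79702262 to 79776143, minus strand), read 71.7, 75.0 and 73.7 CPM in FF_DMSO and 14.7 to 22.4 CPM (median 19.2) in dMye_DMSO (log2 difference -1.97, SE 0.09, adjusted p = 1.6e-13). Among the genes of 10 or more mean CPM, only Wdfy1 and Mmp8 fell by at least 2-fold. Of 42 tested genes within 5 Mb of its start 6 rose and 5 fell (26.2% called). Lyz2, the lysozyme of macrophages (chromosome 10, 117277331 to 117282321, minus strand), read 7472, 6823 and 7129.5 CPM in FF_DMSO and 3648 to 5347 CPM (median 3827) in dMye_DMSO (log2 difference -0.84, SE 0.11, adjusted p = 1.5e-05), while its neighbour Lyz1 read 27.2, 27.0 and 28.5 CPM in FF_DMSO and 75.0 to 105 CPM (median 77.9) in dMye_DMSO (log2 difference 1.56, SE 0.10, adjusted p = 2.7e-10). The copies are nearly identical, so the division of reads between them is uncertain, and dMye_DMSO 5 was the highest of its group for both. Lyz1 gained far fewer CPM than Lyz2 lost. The Lyz1 mean went from 27.6 CPM in FF_DMSO to 82.8 in dMye_DMSO, and the Lyz2 mean from 7141 to 4060. Within 5 Mb of Lyz2, 5 of 39 genes rose and 7 fell (30.8% called). Around Nr1i2 the counts were 7 and 4 of 47 (23.4%), with Fstl1, Upk1b and Heg1 as the genes of smallest p. By autosome the share called ran from 18.7% on chromosome 7 to 25.4% on chromosomes 1 and 9, beside the 21.8% over all.

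The genotype difference was also measured in the 9 libraries given PCN (20 µM for 12 h), which share no library with the DMSO comparison. Sex divided these libraries in the same way, with Ddx3y at 53.9 to 62.7 CPM in FF_PCN and 0 to 0.475 CPM in dMye_PCN. Both comparisons came from 1 fit, and the labels do not state if the same mice gave cells to both treatments. Shared calls are therefore not an independent repeat. Under PCN 3566 autosomal genes were called (27.6%), 2074 higher (16.1%) and 1492 lower (11.6%) in dMye_PCN. Of the 2817 genes called under DMSO, 2637 had the same sign under PCN and 1867 were also called in the same direction, which is 66.3% of the DMSO calls and 52.4% of the PCN calls. A total of 24 were called in opposite directions. The mesothelial, fibroblast and mitosis lists held 17, 10 and 24 rises under PCN as well. B cell falls numbered 4 of 14 under PCN against 10 under DMSO, and class II falls 5 of 14 against 9.

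A test of the difference between the 2 genotype effects (the interaction) called 181 genes (1.4%), 93 with a higher and 88 with a lower value under PCN. It called 1 of the 14 class II genes, Cd74, whose log2 difference was -0.76 under DMSO and -0.32 under PCN (adjusted p = 0.011), and 0 B cell genes. For Cd79a the values were -1.73 and -0.73 (adjusted p = 0.11). Genes of lipid handling were among the calls: Cpt1a went from -0.56 to -0.25 (adjusted p = 0.03), and Lipa from -0.29 to 0.01 (adjusted p = 0.011). Ppp1r15a, a phosphatase subunit of the stress response, was higher in dMye under DMSO (0.25) and lower under PCN (-0.27, interaction adjusted p = 4.4e-04). The number of interaction calls depended on single libraries, with 39 left without FF_DMSO 1.

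**Figure D5:**
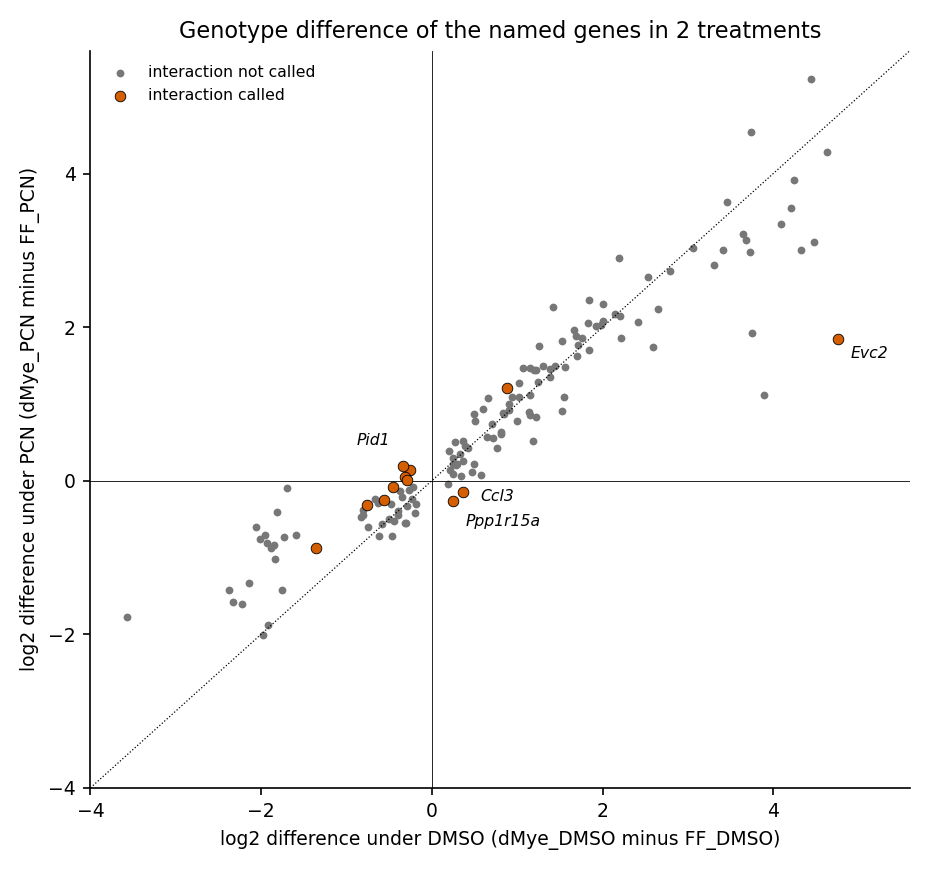
Log2 genotype difference of 149 named genes under DMSO (horizontal) and under PCN (vertical), with the dotted line marking equal values and the 12 genes whose interaction was called in orange. Most points lie near the line, and Ppp1r15a lies above 0 under DMSO and below 0 under PCN.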

How the data were processed

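RNA from cultured peritoneal macrophages was sequenced in 18 libraries. The authors deposited 1 table of expected counts (fractional estimates of reads for each gene), not normalised. The submitters' processing notes name build mm10. Which aligner, quantifier, annotation and strand setting they used is not given in the sources used here, so overlapping and antisense genes, and near-identical copies, could not be told apart. Counts were rounded to whole numbers. Genes were kept by filterByExpr and fitted in all 18 libraries and 4 groups with edgeR 4.0.16 (R 4.3.3; TMM scaling, robust quasi-likelihood test, biological coefficient of variation 9.69%). P-values were adjusted by Benjamini-Hochberg over all 13409 genes tested, and those under 0.05 are called. SE is the size of the log2 difference divided by the square root of F. The script was tested on simulated data. A count of 3 served as floor, for counting error only. Positions are those of GENCODE M21 (GRCm38), matched for 99.7% of tested genes. X, Y and mitochondrial genes were left out of the counts unless named, and 26 date-like symbols were not named. Some items are not reported here.

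The 47 gene lists, the members and the tests were chosen with earlier results of these data known. The rule named the 15 largest rises and falls (called, at least 1 CPM in a group, groups not overlapping), in every list the 3 called genes of smallest p at most, 13 fixed genes, and 3 genes within 5 Mb of 4 loci. Other list members are given as examples. Alternatives were RLE and upper-quartile scaling, 2 other filters, DESeq2 1.42.0, limma-voom (limma 3.58.1), a test against a 1.2-fold change, the 9 DMSO libraries alone, and fits leaving libraries out.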

Additional observations from a re-analysis of the deposited data

Results flagged for a closer look

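In the 6 dMye_DMSO libraries, 11 of 155 named genes and 4 of 44 list sums had 1 library set apart from the other 5 by the gap test (Dixon, 95%), which chance flags in about 1 of 20 groups. Library dMye_DMSO 5 accounted for 8 of the 11 genes. It was highest for Mgp (12.0 CPM), Lyz2 (5347), Lyz1 (104.8), H2-K1 (2406) and Tnf (13.4), and lowest for Gata6 (11.5), Abcg1 (220.3) and Fstl1 (92.7). It was also highest for the summed macrophage core (25202 CPM) and monocyte (172.6) lists and lowest for the fatty acid synthesis (579) and xenobiotic (1630.3) lists. H2-Eb1 was lowest in dMye_DMSO 3 (24.3 CPM), Slc7a11 highest in dMye_DMSO 6 (66.3) and Ier3 lowest in dMye_DMSO 1 (20.4). The part of cell mix or handling in these values was not tested.

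For 12 of the named genes reported here the genotype difference under PCN differed from that under DMSO by the interaction test. It was lower under PCN for Evc2 (-2.92 on the log2 scale), Ccl3 (-0.52) and Ppp1r15a (-0.52). It was higher under PCN for Mmp8 (0.48), Trim30a (0.39), Cd74 (0.44), Cd180 (0.37), Axl (0.32), Cpt1a (0.31), Ucp2 (0.37), Lipa (0.30) and Pid1 (0.53). Their interaction adjusted p ran from 4.4e-04 (Ppp1r15a) to 0.0468 (Mmp8).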

How the results depend on the processing

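No paired analysis was possible because the labels give the libraries no replicate numbers that pair them across groups. Of 155 named genes, 149 were tested in all 18 settings, and 117 of these kept their direction and their side of the threshold in each. Cd3e, Cd4, Flt3, Il2rb and Tbc1d10c did not pass the filter of 1 CPM in 3 libraries, Cd3e was also not tested in the 9 DMSO libraries alone, and DESeq2 gave Igfbp5 no adjusted p. Of the 153 called, 33 lost the call in at least 1 setting that tested them, and 0 changed direction. Of 68 list counts above 0, 34 held 1 to 3 genes, and 21 of these moved by over 1.5 times with 1 library left out. The test against a 1.2-fold change moved 46 list counts by that much. Against a 1.2-fold change, 1279 genes were called under DMSO (1141 rises, 138 falls), 1447 under PCN (1294 and 153) and 8 by the interaction (7 and 1). Upper-quartile scaling left 647 falls under DMSO and 832 under PCN. DESeq2 called 410 interactions (236 and 174), and without a filter 48 interaction falls were called. Leaving out 1 library gave 1975 to 3196 calls under DMSO (1375 to 1797 rises, 572 to 1399 falls), 2525 to 3736 under PCN (1643 to 2093 rises, 882 to 1643 falls) and 39 to 250 interactions (25 to 149 and 14 to 101). The lowest falls came without FF_DMSO 2 and FF_PCN 2. Interaction calls changed by over 1.5 times without FF_DMSO 1 (39), FF_DMSO 3 (46), FF_PCN 2 (59), FF_PCN 3 (89), FF_DMSO 2 or FF_PCN 1 (100 each), dMye_DMSO 2 or dMye_PCN 1 (116 each) and dMye_PCN 2 (120). Smaller fits hold fewer libraries. The cause of the other changes was not tested.

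With 3 FF_DMSO libraries, genes under 1 CPM rest on fewer than 30.2 counts per library.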

Other observations

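Some gene families outside the lists were looked at after their values were seen, and are given as values with no test. Many of their members were read too thinly in FF_DMSO to be called as falls, so no count is set out for collagen chains, Hox genes and Wnt ligands. The basement membrane chains Col4a1 and Col4a2 went from 15.9 ± 1.79 to 79.2 ± 7.43 CPM and from 7.78 ± 0.583 to 45.0 ± 4.73 CPM, and the filament chain Col6a1 from 10.5 ± 0.999 to 72.2 ± 7.44 CPM. Of the Hox genes, which keep the body-axis identity of stromal cells, Hoxb4 had the most reads and was not called (7.80 ± 0.714 CPM in FF_DMSO and 9.78 ± 0.883 in dMye_DMSO), while Hoxc6 went from 0.441 ± 0.0386 to 1.79 ± 0.477 CPM. The Wnt ligands Wnt5a and Wnt4 went from 0.634 ± 0.261 to 5.61 ± 1.07 CPM and from 2.46 ± 0.814 to 8.57 ± 0.799 CPM. Fibroblast and mesothelial sums separated the same libraries, and their part was not tested.

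Subunits and adaptors of PI3-kinases, which relay growth factor and cytokine signals, fell in 8 of 15 and rose in 0 (median -0.25), against 3 falls and 1 rise under PCN. Over all autosomal genes 7.92% fell, and 348 of the 1881 read at 100 CPM or more. Pik3r5 went from 510.5 ± 22.2 to 422 ± 53.6 CPM and Pik3ap1 from 114 ± 4.64 to 86.4 ± 6.12 CPM. FK506-binding proteins, a family of protein-folding enzymes, rose in 8 of 13 and fell in 1 (median 0.49), beside 13.9% rises over all. Under PCN 6 rose and 0 fell. Among the rises under DMSO, Fkbp14, Fkbp11 and Fkbp7 were thinly read, with FF_DMSO means of 0.232, 0.369 and 0.558 CPM. The other rises had FF_DMSO means of 3.81 CPM or more. Gimap GTPases, which are typical of lymphocytes, fell in 3 of 6, beside 7.92% falls over all, with Gimap3 from 2.25 ± 0.540 to 0.681 ± 0.196 CPM.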
